A study of Mus musculus with 11 samples.

Results

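The genes described here are 33 genes of T cell receptor (TCR) signalling in mouse CD8 T cells. Their accessible DNA was followed through 11 ATAC-seq libraries. A region belongs to a member gene if that gene's span is the nearest protein-coding RefSeq span on build mm10, at a distance of at most 100 kb. By this rule 567 of 111041 regions belonged to the 33 genes. The 20 activators of signalling held 364 regions, the 11 negative regulators 166, and Cd6 and Themis, which have been described on both sides, 37. Of the 567 regions, 363 lay inside the span of their gene and 204 outside it, and 21 were as near to a gene that is no member.

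ATAC-seq uses a transposase that cuts and tags open DNA, so that accessible enhancers and promoters give peaks of tags. All cells were CD8 T cells from spleen that carried the Tcf7-YFP reporter, which marks cells that express Tcf7, a gene that encodes TCF-1, a transcription factor of naive and memory T cells. Naive cells were sorted from splenocytes as CD44-negative, CD62L-positive and YFP-positive, and antigen-experienced cells as CD44-positive, CD62L-positive and YFP-positive (1 library each). Effector cells had been activated outside the animal for 3 days (1 library), and the other 8 libraries were of cells split by YFP level at day 3, put back in culture and split again at day 9. These day 9 groups are called high_to_high (YFP high at both sorts, 2 libraries), low_to_low (low at both, 3 libraries) and low_to_high (low, then high, 3 libraries). Whether replicates are separate animals or separate cultures is not given, so p-values measure only the spread between these libraries, which may be technical. Sorted cells were frozen and thawed before the assay. Values are normalized tag counts, the tags under a peak scaled to a library of 10000000 tags.

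The TCR itself cannot signal, and its CD3 and zeta chains carry motifs that the kinases Lck and Fyn phosphorylate, Zap70 docks there, and Zap70 then builds a complex on the adaptors Lat and Lcp2 from which phospholipase C, Ras and protein kinase C theta are switched on. Phosphatases, inhibitory adaptors and ubiquitin ligases of the Cbl family set how strong a ligand must be, and these brakes matter in CD8 T cells for tolerance and for exhaustion.

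Of the 33 genes, 28 were matched in the RefSeq promoter table (build GRCm38.p6), with 37 promoter windows from 250 bases before to 50 bases after a transcription start. Cd2, Cd6, Itch, Malt1 and Sla were not matched. A region overlapped 25 of the 37 windows (67.6%), against 38.9% of 32619 windows of all genes, and 13 (35.1%) held a region called in all 11 libraries, against 26.3%. The sequences below were picked as examples after their values were seen: both promoters of Lck, which differed in the libraries that called them, that of Rasgrp1, whose region was missing from the effector list, and those of Ptpn22 and Cblb, brakes with a region called in all 11 libraries. Capitals mark matches, on either strand, to 5 motifs: CCGGAAG (ETS), TGTGGT (RUNX), CTTTGA (TCF), TGANTCA (AP-1) and GGGCGG (GC box).
Lck upstream promoter (chromosome 4, 129573592 to 129573891, minus strand): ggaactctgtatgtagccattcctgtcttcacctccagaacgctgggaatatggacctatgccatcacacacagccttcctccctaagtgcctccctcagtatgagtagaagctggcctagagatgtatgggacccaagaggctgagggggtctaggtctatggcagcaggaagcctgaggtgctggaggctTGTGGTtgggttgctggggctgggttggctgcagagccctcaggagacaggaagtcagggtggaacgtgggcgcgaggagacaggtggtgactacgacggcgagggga
Lck downstream promoter (chromosome 4, 129558323 to 129558622, minus strand): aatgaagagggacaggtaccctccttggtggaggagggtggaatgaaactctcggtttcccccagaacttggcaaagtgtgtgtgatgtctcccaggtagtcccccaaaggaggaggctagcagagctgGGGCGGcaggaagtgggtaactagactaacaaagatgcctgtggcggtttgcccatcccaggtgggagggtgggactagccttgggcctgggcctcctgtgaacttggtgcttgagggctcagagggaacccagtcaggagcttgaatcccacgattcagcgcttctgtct
Rasgrp1 promoter (chromosome 2, 117342828 to 117343127, minus strand): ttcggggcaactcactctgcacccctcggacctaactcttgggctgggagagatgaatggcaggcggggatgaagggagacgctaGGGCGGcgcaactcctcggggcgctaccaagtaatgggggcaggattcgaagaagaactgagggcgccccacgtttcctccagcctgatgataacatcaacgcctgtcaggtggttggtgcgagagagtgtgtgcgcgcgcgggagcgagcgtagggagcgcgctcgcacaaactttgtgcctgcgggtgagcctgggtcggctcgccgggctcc
Ptpn22 promoter (chromosome 3, 103860027 to 103860326, plus strand): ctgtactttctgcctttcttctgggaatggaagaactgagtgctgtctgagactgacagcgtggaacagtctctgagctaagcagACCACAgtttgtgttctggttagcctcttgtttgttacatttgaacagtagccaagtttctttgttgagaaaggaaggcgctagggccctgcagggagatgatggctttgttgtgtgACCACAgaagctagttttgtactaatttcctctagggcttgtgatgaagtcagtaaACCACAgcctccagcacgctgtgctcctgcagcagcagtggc
Cblb promoter (chromosome 16, 52031299 to 52031598, plus strand): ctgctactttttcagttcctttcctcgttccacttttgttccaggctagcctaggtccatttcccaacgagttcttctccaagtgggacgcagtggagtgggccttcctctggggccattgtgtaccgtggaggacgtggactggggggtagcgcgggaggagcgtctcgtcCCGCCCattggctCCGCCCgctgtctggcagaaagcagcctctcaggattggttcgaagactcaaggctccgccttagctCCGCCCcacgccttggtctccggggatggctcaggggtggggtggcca
No motifs overlapped in these 5 windows. Over the 37 windows the GC box was in 14 (37.8%; 35.7% of 32851 promoters of all genes), the RUNX letters in 6 (16.2%; 16.8%), the TCF letters in 6 (16.2%; 16.0%), the ETS letters in 1 (2.70%; 8.86%) and the AP-1 letters in 0 (7.81%). A match describes the letters only.

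Depth and list length touch every count below. Libraries held 20836580 (low_to_high replicate 3) to 59973499 (high_to_high replicate 2) tags and 46454 to 66117 peaks, and a list's weakest peak held 8.0 to 14.0 tags. Peaks were called on each library alone in windows of 132 to 172 bp, and a filter on local signal removed 36.4 to 53.3% of putative peaks, most in the effector library, so that a region missing from a list is not known to be closed. The window was 132 bp in the naive library, 136 bp in high_to_high replicate 2 and 172 bp in the other libraries. For naive cells, window and cell state therefore cannot be told apart. The fraction of tags in peaks was 15.01% in the naive library, 15.75% in the antigen-experienced library and 9.08% in the effector library. At day 9 it was 9.01 to 12.5%. The normalized tag counts given below are not adjusted for this fraction. Its part in the differences between splenocyte and cultured libraries was not tested. Of the CD8 T cell markers, Cd8a had 2 regions inside its span in the naive list, 1 in antigen-experienced cells, 0 in effector cells and 1 in 1 of 8 day 9 lists. Cd8b1 had 0 in naive cells, 1 in antigen-experienced cells, 0 in effector cells and 1 in 4 of 8 day 9 lists, and Cd3e, also a member, had 2, 1 and 1, and 1 or 2 in 7 of 8 day 9 lists. The 4 regions of Tcf7 tested at day 9 were not called in any of the 4 comparisons of YFP states (limma, differences from -0.16 to 0.09).

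The question put to the naive and effector libraries was which regions of these genes were accessible before and after activation. The naive list held 361 member regions (63.7%, against 51.7% of all regions) and the antigen-experienced list 303 (53.4%, against 45.2%). The effector list held 289 (51.0%, against 59.5%), and the day 9 lists 236 to 302 (41.6 to 53.3%, against 41.7 to 55.9%). Of the 361 naive member regions, 218 (60.4%) were missing from the effector list, against 43.7% of all naive regions. The classes gave close shares, with no test of their difference: 145 of 239 activator regions (60.7%) and 61 of 102 regions of negative regulators (59.8%) were missing. In the other direction 146 of 289 effector member regions (50.5%) were missing from the naive list, which is near the 51.0% of all effector regions. The shares came apart among stronger effector regions. Of 98 effector member regions at a normalized tag count of 20 or more, 51 (52.0%) were missing, against 28.0% of all regions. By class it was 30 of 62 activator regions (48.4%) and 19 of 31 regions of negative regulators (61.3%), also without a test. At 40 or more, 2 of 10 member regions were missing, against 12.6% of all regions. Each state had 1 library, so none of these shares has a replicate check.

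The share of naive member regions missing in effector cells also stayed above that of all regions among strong regions. Of the 88 naive member regions with a normalized tag count of at least 40, 44 (50%) were missing in effector cells, against 20.1% of all regions at that level. By class it was 33 of 62 activator regions (53.2%) and 11 of 25 regions of negative regulators (44.0%), with no test of their difference. Median naive values were 20.5 for the member regions missing in effector cells and 28.1 for those called in both. Of the 218 missing member regions, 32 had an effector peak beside them, within 500 bp. With a region counted as missing only where no effector peak lay within 500 bp, a criterion chosen after the data were seen, the share was 51.5% of member regions and 35.0% of all regions.

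The comparison of naive with antigen-experienced cells gave no such excess in the count of all naive regions. Of the naive member regions, 85 (23.5%) were missing in antigen-experienced cells, against 23.2% of all regions. At a naive value of 20 or more it was 13.4% against 10.6%, and at 40 or more 4.55% against 6.24%. With no antigen-experienced peak within 500 bp it was 19.4% against 16.3%. Of the antigen-experienced member regions, 27 (8.91%) were missing in naive cells, against 12.2%.

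At day 9 much of what was missing in effector cells was called. Of 172 member regions called in all 8 day 9 libraries, 70 (40.7%) were missing from the effector list, against 24.6% of all such regions, and 11 (6.4%) were missing from the naive list, against 10.4%. The activators gave 45 of 107 (42.1%) and the negative regulators 22 of 56 (39.3%) for the first of these counts. Of the naive member regions, 71 (19.7%) were in none of the 8 day 9 lists, against 14.3%. Of the effector member regions, 122 (42.2%) were in none of them, against 41.1%. The pattern of calls in splenocytes and at day 9 without a call in effector cells was the most frequent, with 157 of 567 member regions (27.7%) against 18.2% of all regions. A further 95 (16.8%; 21.1% of all) were called in all 11 libraries, 117 (20.6%; 23.4%) in effector cells alone, 78 (13.8%; 8.10%) in splenocytes alone and 43 (7.58%; 14.2%) at day 9 alone.

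**Figure D1:**
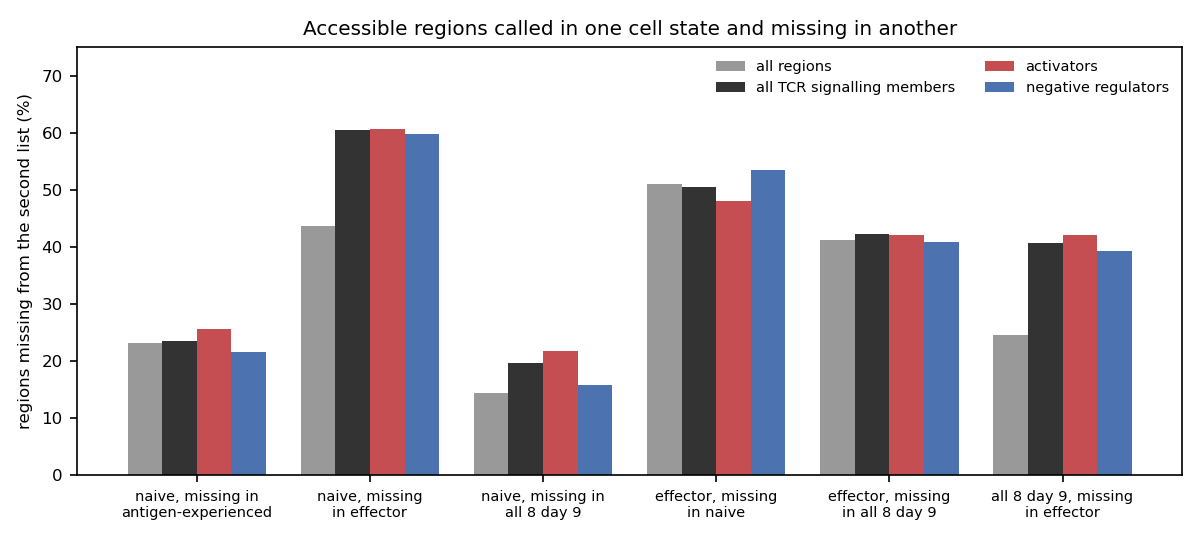
Share of regions (%) that were called in one cell state and missing from the list of another, for all regions, all members, activators and negative regulators; naive, antigen-experienced and effector cells are 1 library each. The members stand above all regions for naive regions missing in effector cells (60.4% against 43.7%) and for day 9 regions missing in effector cells (40.7% against 24.6%), with both classes close together.

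More regions of the B cell list were called in the effector library, most of them in Ebf1. Of the 52 regions of the B cell list (which includes Ms4a1, Cd79a, Cd79b, Pax5 and Ebf1), 36 were called in effector cells, 11 in naive cells, 17 in antigen-experienced cells and 14 to 21 at day 9. Of all regions, 59.5% were in the effector list, 51.7% in the naive list and 45.2% in the antigen-experienced list. The regions of the B cell list were weak, with a median of 7.85 in effector cells (9.68 for all regions) and 7.73 in naive cells (14.5). Ebf1, which specifies the B lineage, had 25 regions inside its span in effector cells, 3 in naive cells and 5 to 8 at day 9, and the 1 region in Ms4a1, which encodes CD20, was called in effector cells alone. Pax5 had 7 in effector cells, 4 in naive cells, 6 in antigen-experienced cells and 3 to 8 at day 9. Cd79b had 0 in effector cells, 1 in naive cells, 2 in antigen-experienced cells and 0 to 2 at day 9, and Cd79a had none in any library. The summed level of the list was 372.5 in effector cells, 107.6 in naive cells and 237.3 in antigen-experienced cells. The part of other cells in the effector values was not tested, and in a bulk sample fewer cells with an open site and less opening per cell cannot be told apart. Among the other lists the effector library called 13 of 33 myeloid regions (naive 21), 12 of 21 natural killer regions (naive 12), 10 of 25 regions of CD4 and regulatory T cells (naive 15) and 10 of 25 of the CD8 T cell list (naive 18).

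Among regions called in both libraries, levels were compared on a log2(value + 1) scale after centring on the median of all regions, and a difference of at least 1 on that scale is called 2-fold. Of 143 member regions called in naive and effector cells, 14 were at least 2-fold higher in effector cells and 18 at least 2-fold lower, where all regions gave 14.6% higher and 6.1% lower. The median difference was -0.17 for members, -0.22 for activators and -0.06 for negative regulators. Without centring the median of all regions was -0.71, so that differences here are relative to a general shift. With 1 mean centred difference per gene, 8 of 20 activators and 4 of 10 negative regulators were above 0, as were 46.9% of all genes. Antigen-experienced against naive cells gave 9 higher and 1 lower of 276 (all regions 3.69% and 1.07%), with a median of 0.03. Effector against antigen-experienced cells gave 12 higher and 14 lower of 139 (12.5% and 5.21%), with a median of -0.19. The mean of the day 9 libraries against naive cells gave 7 higher and 6 lower of 161 (11.9% and 1.47%), with a median of -0.12. Against effector cells it gave 6 higher and 4 lower of 102 (5.23% and 4.68%), with a median of -0.03. By gene means, 12 of 20 activators and 10 of 11 negative regulators were above 0 for antigen-experienced against naive cells (all genes 49.0%). For effector against antigen-experienced cells it was 7 of 20 and 5 of 10 (47.0%). Day 9 against naive cells gave 10 of 19 and 6 of 11 (47.4%), and day 9 against effector cells 12 of 17 and 4 of 9 (51.1%). No test was made of these splits. These comparisons share libraries, so they are not independent of one another.

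Of the TCR complex, Cd3d, which encodes CD3 delta, had 1 region (chromosome 9, 44986533 to 44986751). It was at 123.7 in naive, 121.9 in antigen-experienced and 48.8 in effector cells, and at 59.5 to 93.7 at day 9 (median 72.2). The region was called in all 11 libraries and was lowest in effector cells, with a centred difference from naive cells of -0.61. Cd3g had 2 regions, and its promoter region was at 74.2, 68.4 and 27.5 in the 3 single libraries. It was called in 5 of 8 day 9 libraries, at 31.7 to 48.3, so Cd3g had no region that could be tested there. Cd3e had 12 regions, of which 6 of its 8 naive regions were missing in effector cells. Its promoter region was at 62.9, 70.7 and 27.1, and at 35.8 to 57.9 in the 7 day 9 libraries that called it. In high_to_high replicate 1 the peak lay beside that region instead, at 41.8.

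Cd247, which encodes the zeta chain, had 21 regions, all inside its span. Its strongest region (chromosome 1, 165837647 to 165837819) was at 71.0 in naive cells and 44.7 in antigen-experienced cells, a centred difference of -0.82, and was called in no cultured library. Of its 13 naive regions, 7 were missing in effector cells. Cd2, an adhesion receptor that adds to TCR signals, had 23 regions, with 10 of 14 naive regions missing in effector cells. Its strongest region by median was at 65.4 and 88.2 in naive and antigen-experienced cells, and at 16.1 in the only day 9 library that called it, high_to_high replicate 1. A region 814 bp outside the span, picked out after its values were seen, was at 85.5 and 101.2 in the splenocyte libraries and at 41.7 to 62.7 (median 49.3) at day 9. The nearest effector peak lay 18609 bp away.

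The kinase Lck starts the cascade, and its gene has a downstream promoter, known for its use in thymocytes, and an upstream promoter, known for its use in mature T cells. The downstream promoter printed above held a region called in all 11 libraries. It was at 66.0 in naive, 63.7 in antigen-experienced and 13.1 in effector cells, and at 24.8 to 31.8 at day 9 (median 27.8). The upstream promoter held a region called in the naive library alone, at 55.6. Between them, a region (129570137 to 129570309) was at 66.2 (naive) and 90.1 (antigen-experienced) and was called in no cultured library. A further region (129571637 to 129571839) was called in 3 of 8 day 9 libraries alone, at 39.8 to 54.7, and both were missing in effector cells. The regions of Lck besides the strongest were picked out after their values were seen. One of them, starting at 129565237, was at 52.0, 82.2 and 19.1 to 30.2 (median 23.3) in naive, antigen-experienced and day 9 cells and was missing in effector cells. In all Lck had 7 regions, 6 of them in the naive list and 2 in the effector list.

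Zap70, the kinase that reads the phosphorylated chains, had 5 regions and 1 of 4 naive regions missing in effector cells. Its promoter region was at 85.0, 85.0 and 21.5, and at 44.1 to 55.2 (median 49.1) at day 9. Fyn, a kinase related to Lck, had 60 regions, the most of any member. Its 34 naive regions included 24 missing in effector cells, and 18 of its effector regions were missing in naive cells. Its strongest region, at the promoter, was at 97.1, 111.0 and 41.3, and at 57.7 to 75.2 at day 9. Another region inside Fyn (chromosome 10, 39479296 to 39479722) was at 11.1 in naive, 34.5 in antigen-experienced and 22.8 in effector cells, and at 31.7 to 52.2 at day 9 (median 41.0). All 8 day 9 values were above the naive value, and the centred difference of their mean was 2.19 (1.39 for antigen-experienced against naive cells). Another region of Fyn, 57981 bp outside the span, was at 3.6 in naive cells and 8.52 to 22.8 at day 9, with a difference of 2.09, and one 95425 bp outside was at 4.0 and 5.80 to 13.3, with a difference of 1.49. Antigen-experienced cells had their largest excess over naive cells in Fyn as well, where a region was at 36.9 against 7.46, a difference of 2.00. That region was called at day 9 in both high_to_high libraries (17.8 and 12.8) and in no low_to_low or low_to_high library.

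Effector cells stood apart in further regions of Fyn. A region 7414 bp outside the span was at 18.9 in effector cells and 4.13 in naive cells (difference 2.67) and in no other library. One inside the span was at 22 and 6.40 (2.35), with 11.2 and 9.74 in the day 9 libraries high_to_high replicate 1 and low_to_high replicate 1. Against the day 9 mean, a region at 20.2 in effector cells was at 9.74 to 18.9 (-1.06), and one at 5.36 was at 18.6 to 27.6 (1.45). Fyn held both higher and lower regions in effector cells. Ptprc encodes CD45, the phosphatase that keeps Lck active, and had 30 regions, with 14 of 19 effector regions missing in naive cells. Its strongest region was at 87.3, 109.7 and 38.5, with 59.5 to 80.9 at day 9. A region 23350 bp outside Ptprc was at 30.3 in effector and 6.18 in antigen-experienced cells (3.04), at 3.0 to 4.56 in the 3 day 9 libraries that called it, and was missing in naive cells.

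Lat and Lcp2 (SLP-76) are the adaptors on which the complex is built. Lat had 12 regions, with 6 of 8 naive regions missing in effector cells, and its promoter region was at 48.9, 54.3 and 24.3 in naive, antigen-experienced and effector cells and at 25.8 to 42.2 at day 9. Lcp2 had 24 regions, with 9 of 10 naive regions missing in effector cells, and 13 of its 14 effector regions were missing in naive cells. Its strongest region (chromosome 11, 34034015 to 34034284) was at 26.9 and 26.8 in the splenocyte libraries and 34.8 to 58.9 (median 46.6) at day 9. The effector list had its peak 48 bp to the side, at 36.9. The count of missing regions holds such neighbouring peaks.

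Grap2 (GADS), which links Lcp2 to Lat, had 17 regions, with 9 of 11 naive regions missing in effector cells. The one with the highest naive value, picked out after its values were seen, was at 89.7 (naive) and 107.8 (antigen-experienced) and at 29.5 to 44.9 in the 7 day 9 libraries that called it. The nearest effector peak lay 8546 bp away. Its strongest region by rule, 58 bp outside the span, was called throughout, at 89.7, 93.1 and 23.4 and at 43.3 to 64.0 at day 9. A region inside Grap2 was at 21.6 in naive, 54.3 in antigen-experienced (1.13) and 32.3 in effector cells and at 27.5 to 40 at day 9. Nck1, an adaptor to actin regulators, had 10 regions, with 5 of 7 naive regions missing in effector cells, and its promoter region was at 104.6, 105.7 and 42.3, with 50.6 to 81.1 at day 9.

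**Figure D2:**
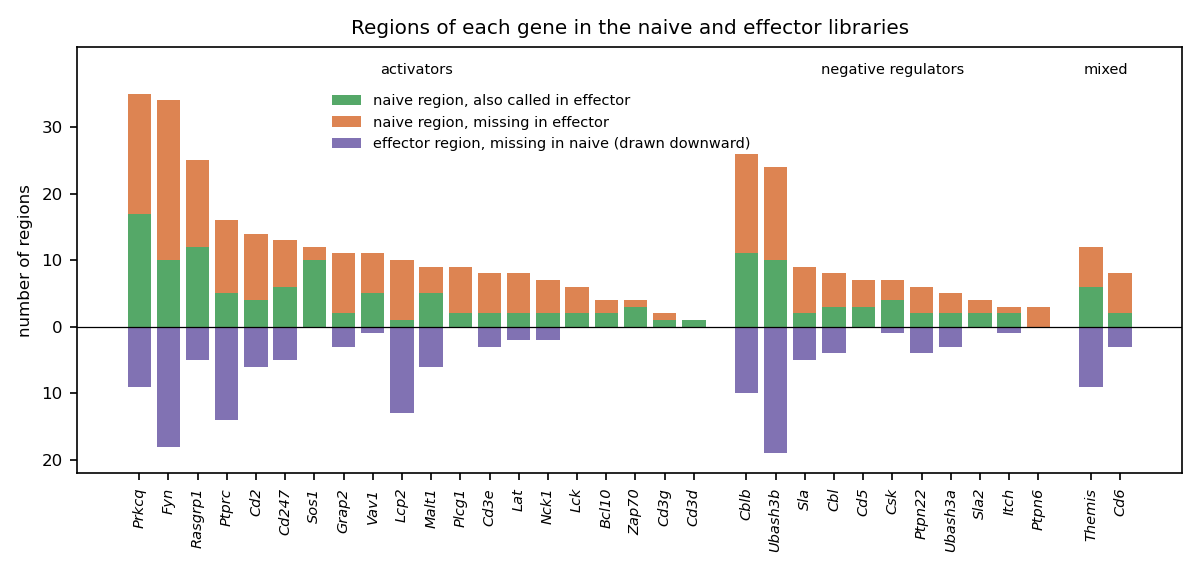
Number of regions of each gene called in the naive library and also in the effector library, called in naive and missing in effector, or (drawn downward) called in effector and missing in naive. All 33 genes but Cd3d had a naive region missing in effector cells, and 23 had an effector region missing in naive cells.

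Downstream of the adaptors, Prkcq encodes protein kinase C theta and had 52 regions, 12 of them called in all 11 libraries. A region inside it (chromosome 2, 11266375 to 11266842) was at 69.6 in naive, 37.7 in antigen-experienced and 12.1 in effector cells, and at 14.8 to 24.1 at day 9 (median 19.9). Every other library was below the naive one, with centred differences of -1.03, -1.72 and -1.35 for the antigen-experienced, effector and mean day 9 values. It was the lowest member of the antigen-experienced and of the day 9 comparison with naive cells. The strongest region of Prkcq was at 72.4 and 81.6 in the splenocyte libraries and 42.7 to 68.4 at day 9, and the nearest effector peak lay 1451 bp away. Further regions of Prkcq were low at day 9 against naive cells, one at 43.0 and 12 to 16.8 (-1.12) and one at 79.3 and 23.7 to 30.8 (-1.09), and both were missing in effector cells. A region 73875 bp outside was at 52.1 in naive and 9.87 in effector cells and at 24.9 to 38.6 at day 9, above effector cells in all 8 libraries (1.17). Of the 117 member regions called in effector cells alone, the highest was in Prkcq, at 44.3, picked out after its value was seen.

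Bcl10 and Malt1 pass the signal to NF-kappaB. Bcl10 had 5 regions, and its promoter region had the highest median over libraries of any member region. It was at 144.0, 163.6 and 59.2 in the 3 single libraries and at 66.6 to 96.9 (median 94.0) at day 9. Malt1 had 17 regions, with 4 of 9 naive regions missing in effector cells, and its strongest region was at 67.6, 84.6 and 23.9, with 46.6 to 67.3 at day 9. A Malt1 region 253 bp outside the span was higher in effector cells, at 28.8 against 10.9, a difference of 2.04.

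Rasgrp1 activates Ras and had 32 regions, and 13 of its 25 naive regions were missing in effector cells. The region over the promoter printed above was at 72.8 and 65.8 in the splenocyte libraries and 44.4 to 68.4 (median 49.2) at day 9. The effector list had a peak 81 bp from it, at 28.8. The strongest region, 74591 bp before the span, was at 75.2 and 70.9 and at 41.1 to 54.0 at day 9, and the nearest effector peak lay 593 bp away. A region 56674 bp outside was at 42.5 and 62.0 in naive and antigen-experienced cells, 8.93 in effector cells (-1.75 against antigen-experienced) and 21.1 to 33.1 at day 9. At 89206 bp a region was at 14.1 (naive) and 8.10 (antigen-experienced), a difference of -0.89, and at 89846 bp one was at 17.5 in effector cells and 5.42 to 12.4 at day 9 (-1.46).

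Sos1, the other activator of Ras here, had 12 regions, all in the naive list, and 2 of them were missing in effector cells. Its strongest region was at 76.2, 83.7 and 32.3, and at 35.5 to 55.4 at day 9. A region inside it was at 24.5, 19.4 and 3.76 (effector against naive -1.71) and at 15.7 to 21.5 at day 9 (1.56 against effector). A region 20633 bp outside Sos1 was at 4.26 in naive, 5.54 in antigen-experienced and 26.8 in effector cells, the largest excess of effector over naive cells in any member (3.11). It was called in 2 of 8 day 9 libraries, at 3.33 and 4.78. Plcg1, the phospholipase C of this pathway, had 7 of 9 naive regions missing in effector cells, and Vav1, an exchange factor for Rac, 6 of 11 among its 13 regions. Their strongest regions were at 58.8, 91.2 and 31.8 for Plcg1 and at 55, 94.0 and 39.1 for Vav1, with 46.6 to 64.0 and 42.8 to 61.5 at day 9.

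Among the negative regulators, Cblb held the lowest region of the effector against naive comparison. The gene encodes a ubiquitin ligase that raises the threshold for activation without costimulation. A region inside it (chromosome 16, 52129569 to 52129834) was at 90.2 in naive, 104.2 in antigen-experienced and 9.02 in effector cells, and at 47.3 to 63.0 at day 9 (median 53.8). The effector value was the lowest of the 11, the day 9 values lay between, and the centred differences were -2.48 for effector against naive cells and 2.06 for the day 9 mean against effector cells. No member region was lower in the first comparison or higher in the second. The region over the Cblb promoter printed above was at 123.8, 98.9 and 47.0, and at 59.0 to 85.9 at day 9. A region of Cblb 23764 bp outside the span was at 55.7 and 55 in the splenocyte libraries, 7.80 in effector cells (-1.98) and 5.02 to 12 in the 7 day 9 libraries that called it, all of them far below the splenocyte values. Another region inside Cblb was at 30.8, 28.5 and 5.36 (-1.29 for effector against antigen-experienced cells) and at 11.3 to 20.7 at day 9. Weaker regions went the other way: one 10952 bp outside was at 5.97 in antigen-experienced and 13.4 in effector cells (1.97), and one 41675 bp outside at 5.97 and 11.2 (1.73), with 4.84 to 8.59 at day 9 (-1.16). A region 21499 bp outside was at 28.5 (naive) and 15.6 (antigen-experienced), a difference of -0.99, and in no cultured library. Cblb had 40 regions, and of its 26 naive regions, 15 were missing in effector cells. Cbl, the related ligase, had 16 regions and 5 of 8 missing, with its promoter region at 110.5, 121.4 and 47.9 and at 55 to 85.0 at day 9. Itch, a ligase of another family, had 4 regions, and its strongest region was at 60.6, 66.5 and 27.5 with 23.8 to 44.1 at day 9. A region 25772 bp outside Itch was at 3.2 in naive cells and 5.67 to 11.8 at day 9, above it in all 8 libraries (1.54).

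The phosphatase Ptpn22 removes phosphate from Lck and Zap70 and had 10 regions. The region over its promoter, printed above with 3 RUNX matches, was at 118.2, 124.2 and 48.1 and at 61.9 to 92.2 (median 75.9) at day 9. Another region inside Ptpn22 (chromosome 3, 103868123 to 103868340) was at 87.4 and 115.0 in the splenocyte libraries and 51.9 to 72 (median 64.9) at day 9, and the nearest effector peak lay 2083 bp away. It was picked out after its values were seen. Ptpn6 (SHP-1) had 4 regions, all inside its span, and none was in the effector list. The strongest of them was at 31.4 and 55.6, and at 26.9 to 39.6 at day 9. Csk, the kinase that shuts Lck off, had 8 regions, 4 of them called in all 11 libraries, with the strongest at 77.7, 91.6 and 22 with 38.7 to 61.4 at day 9.

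Ubash3a and Ubash3b (Sts-2 and Sts-1) are related negative regulators, and Ubash3b dephosphorylates Zap70. The promoter region of Ubash3a was at 62.8 and 68.0 in the splenocyte libraries and 21.5 to 42.5 at day 9, and the nearest effector peak lay 4475 bp away. Ubash3a had 9 regions. Ubash3b had 49 regions, and 19 of its 29 effector regions were missing in naive cells. The strongest was at 65.6, 69.9 and 19.2, and at 37.6 to 55.2 at day 9. The region with the highest naive value, 90.6, picked out after its values were seen, was at 89.3 in antigen-experienced cells, at 14.8 to 22.9 in the 5 day 9 libraries that called it, and missing in effector cells.

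Sla and Sla2 (SLAP and SLAP-2) lower the amount of TCR at the surface. All 14 regions of Sla also lie inside the span of Tg, so that their assignment to Sla is uncertain. A Sla region was at 12.4 in naive and 49.9 in antigen-experienced cells, a difference of 1.76, and at 11 to 23.5 at day 9. The strongest Sla region was at 65.0 and 76.7, missing in effector cells and at 29.9 to 43.4 at day 9. Sla2 had 4 regions, the strongest at 43.8 and 55.6, missing in effector cells and at 32.3 to 50.3 at day 9. Another was at 87.7 and 82.2 in the splenocyte libraries, at 30.8 and 22.8 in high_to_high and at 33.8 and 30 in low_to_high replicates 1 and 3, and it was called in no low_to_low library. It was picked out after its values were seen and could not be tested. The inhibitory receptor Cd5 had 8 regions, with the strongest at 51.7 in naive, 109.9 in antigen-experienced and 26.0 in effector cells and at 57.7 to 77.6 at day 9, above the naive value in all 8.

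Of the genes described on both sides, Themis, which binds the phosphatase Ptpn6, had 25 regions, and 9 effector regions were missing in naive cells, all 9 called in effector cells alone. A region inside it (chromosome 10, 28695039 to 28695317) was at 13.3 in naive, 23.6 in antigen-experienced and 30.8 in effector cells, and at 6.96 to 9.68 at day 9 (median 8.14). All 8 day 9 values were below the other 3, and the centred difference from effector cells was -2.22, the lowest of any member. The promoter region of Themis was at 73.3, 78.4 and 24.0, and at 44.8 to 65.7 at day 9. Cd6, a receptor related to Cd5, had 12 regions, of which 6 of 8 naive regions were missing in effector cells. Its strongest region was at 69.5 in antigen-experienced cells and 21.3 in low_to_low replicate 2, and in no other library.

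**Figure D3:**
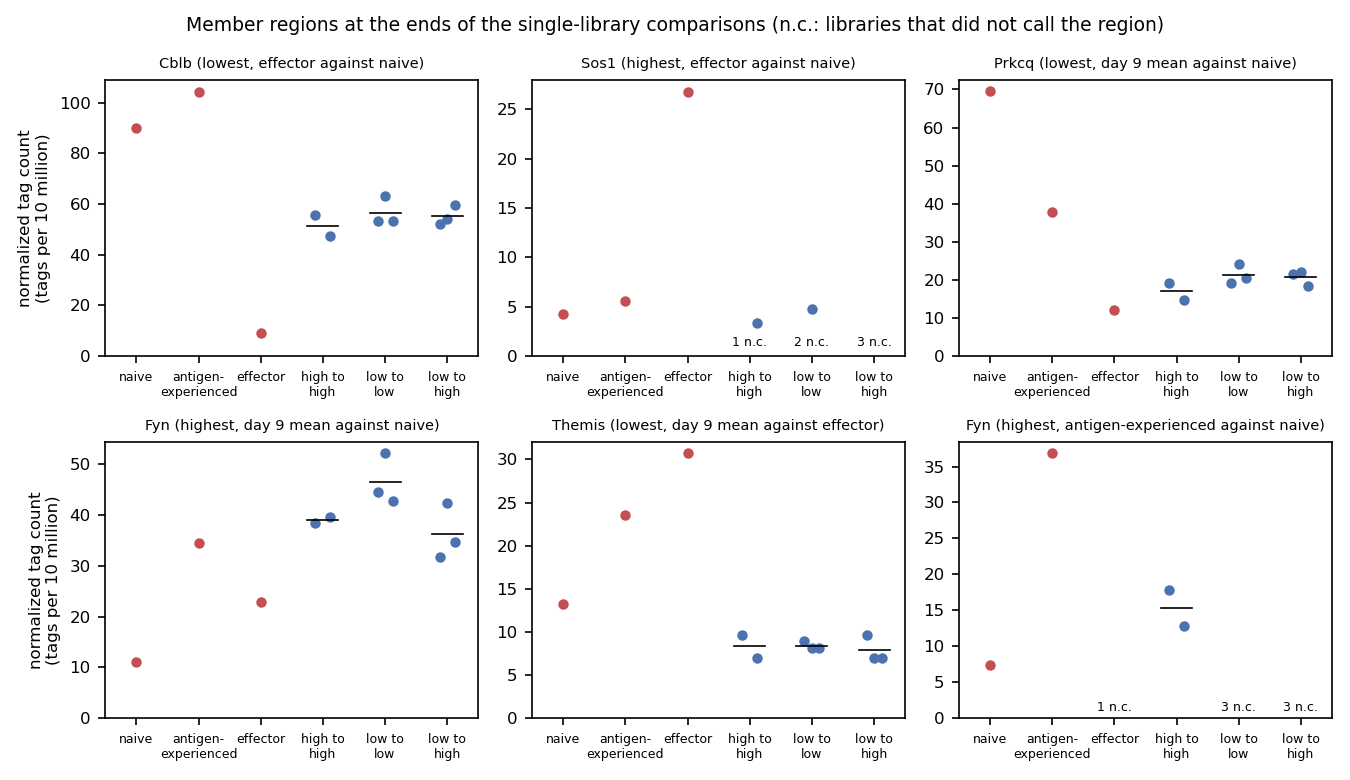
Normalized tag count (tags per 10000000) of 6 member regions in each library, red for the 3 single libraries and blue for day 9, with a line at the mean of a day 9 group whose libraries all called the region. Each is the lowest or highest member of the comparison in its title; the Cblb region is at 9.02 in effector cells and 47.3 to 63.0 at day 9, and the Themis region is at 30.8 and 6.96 to 9.68.

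The day 9 libraries were compared to find whether these genes differ between YFP states, with limma over all 34383 regions called in all 8 libraries and Benjamini-Hochberg adjustment over all of them. On the deposited scale low_to_low libraries were higher in general, and differences are given after centring. No member region passed an adjusted p of 0.05 in any of the 4 comparisons. Between the 5 YFP-high and the 3 YFP-low libraries 0 of 172 member regions passed, against 0.332% of all regions. For high_to_high against low_to_low it was 0 of 172 (all regions 0.596%), for low_to_high against low_to_low 0 of 172 (0.032%), and for low_to_high against high_to_high 0 of 172 (0.0%). At an unadjusted p under 0.05 there were 15, 13, 9 and 7 member regions in these 4 comparisons, or 8.72%, 7.56%, 5.23% and 4.07%, and the shares of all regions were 8.07%, 9.92%, 5.56% and 5.09%. Median differences of the members were -0.03, -0.01, -0.02 and 0.02 on the log2 scale. The first 3 comparisons share the low_to_low libraries. A p above the threshold does not show that the groups are alike. Of the marker lists, 1 region of the CD4 and regulatory T cell list was called as higher in each of the first 3 comparisons, and none of the other 4 marker lists had a call in any; its part in these results was not tested.

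**Figure D4:**
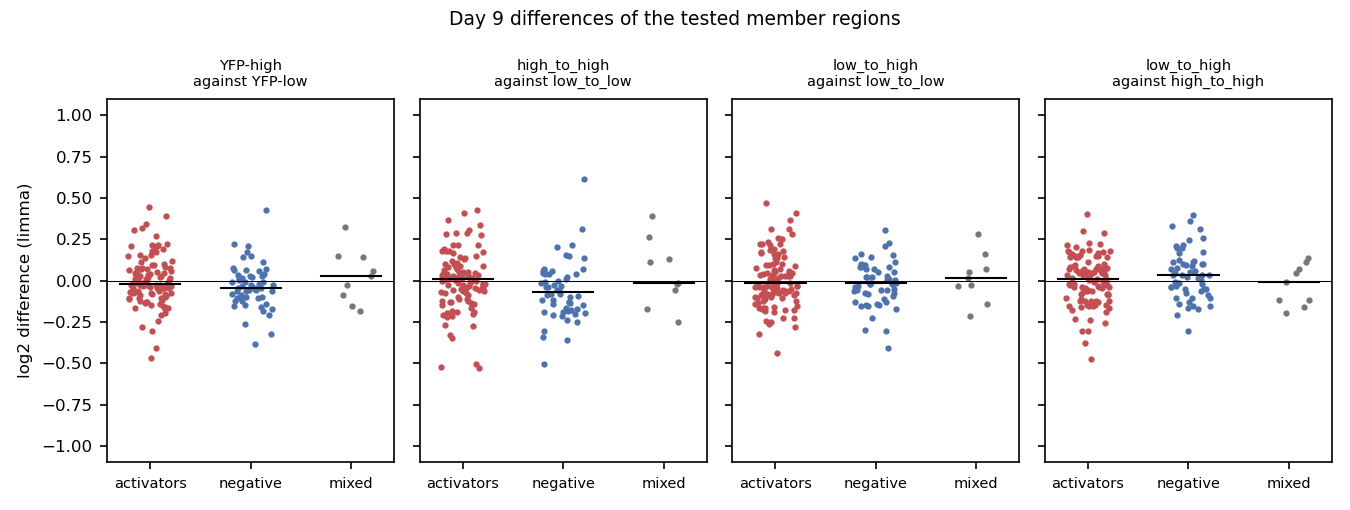
Centred log2 difference of each of the 172 tested member regions in the 4 day 9 comparisons, by class; the line is the median of a class. All points lie between -0.53 and 0.61, and none passed the adjusted threshold.

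The nearest to a call was a region outside Ubash3b (chromosome 9, 41181447 to 41181675, 19755 bp from the span), at 46.6 in naive cells (-1.12 for the day 9 mean). It was at 18.4 and 17.0 in high_to_high, at 16.0, 13.9 and 12.2 in low_to_low and at 16.8, 15.2 and 14.4 in low_to_high. Both high_to_high values were above the 3 low_to_low values. The centred difference was 0.61 ± 0.17 (SE) with an adjusted p of 0.107 (limma), and over all YFP-high libraries it was 0.43 ± 0.14 with an adjusted p of 0.284. Without low_to_low replicate 1 the first of these had an adjusted p of 0.0302. The differences were 0.33 and 0.12 (adjusted p = 0.992 and 0.999, limma) with each library's fraction of tags in peaks as a covariate, and 0.32 and 0.21 without centring. That fraction was 10.4 to 12.5% in low_to_low and 9.01 to 10.2% in the YFP-high libraries. Its effect and that of YFP state therefore cannot be told apart.

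A region inside Fyn (39402574 to 39402813) was at 33.5 and 30.7 in high_to_high, at 47.3, 55.2 and 49.4 in low_to_low and at 32.7, 40.5 and 37.4 in low_to_high. The 5 YFP-high values, 30.7 to 40.5, were all below the 3 YFP-low values. These values are not centred, and low_to_low was higher in general on that scale. Other member regions were separated in the same way, such as the Cd3d region (59.5 to 72.8 against 74.2 to 93.7) and the strongest Sla2 region (32.3 to 41.2 against 42.5 to 50.3). The centred difference was -0.31 ± 0.10 (adjusted p = 0.232, limma) for YFP-high against YFP-low, -0.35 ± 0.12 (adjusted p = 0.253) for high_to_high and -0.28 ± 0.11 (adjusted p = 0.758) for low_to_high against low_to_low. Without centring, where 4.02% of all genes were above 0 between YFP-high and YFP-low libraries, the first was -0.53 (adjusted p = 0.0236, limma) and the second -0.64 (adjusted p = 0.00493). Another Fyn region, 89020 bp outside the span, was at 6.97 and 7.59 in high_to_high, 13.3, 13.1 and 13.7 in low_to_low and 8.14, 11.2 and 6.48 in low_to_high. Here too the YFP-high values were all lower on the uncentred scale. The centred difference was -0.47 ± 0.16 (adjusted p = 0.296, limma), and without centring it was -0.68 (adjusted p = 0.0269, limma).

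A region 10906 bp outside Prkcq (11160780 to 11160999) was at 13 and 10.9 in high_to_high, 22.4, 22.6 and 20.2 in low_to_low and 17.5, 17.0 and 18.2 in low_to_high. On this uncentred scale the 3 groups did not overlap, and low_to_high lay between. The share of all regions with such an order was not counted. The difference of high_to_high from low_to_low was -0.52 ± 0.16 (adjusted p = 0.161, limma; -0.81 and 0.00467 without centring), and that of low_to_high from high_to_high was 0.40 ± 0.16 (adjusted p = 0.923). Another region, inside Prkcq, was at 32.9 and 34.4 in high_to_high and 28.4, 26.9 and 33.8 in low_to_high, a difference of -0.30 ± 0.13 (adjusted p = 0.956, limma) with overlapping groups.

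In low_to_high against low_to_low the lowest p values belonged to Sos1 and Sla besides the Fyn region. The Sos1 region was at 11.7, 11.2 and 12.2 in low_to_high and at 9.34, 8.24 and 10.5 in low_to_low, a difference of 0.47 ± 0.17 (adjusted p = 0.715, limma). The difference was 0.30 without centring and 0.11 with each library's fraction of tags in peaks as a covariate, a fraction that follows YFP state. The Sla region already named was at 15.8, 15.2 and 11 in low_to_high and 23.5, 20.4 and 19.6 in low_to_low, a difference of -0.41 ± 0.16 (adjusted p = 0.758, limma). Neither pair of groups overlapped in these uncentred values. The share of all regions without such overlap was not counted. A region inside Ubash3a was at 23.3, 29.3 and 28.1 in low_to_high and 17.0 and 19.9 in high_to_high, also without overlap, a difference of 0.40 ± 0.14 (adjusted p = 0.923, limma).

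With 1 value per gene, the mean over its tested regions, 0 of 32 member genes were called in any comparison (limma), where the share of all 13720 genes was 0.0% between YFP-high and YFP-low libraries, 0.0583% for high_to_high against low_to_low, 0.0% for low_to_high against low_to_low and 0.0% for low_to_high against high_to_high. At an unadjusted p under 0.05 there were 0, 2, 0 and 1 member genes (0%, 6.25%, 0% and 3.13%), where all genes gave 7.38%, 9.49%, 5.08% and 5.66%. Itch and Ubash3a were the 2, at -0.26 ± 0.11 and -0.26 ± 0.11 for high_to_high against low_to_low (adjusted p = 0.477 and 0.481, limma). For YFP-high against YFP-low, 12 of 19 activators and 2 of 11 negative regulators were above the median of all genes, and negative regulators ran from -0.12 to -0.0025. Without centring 0 of 19 and 0 of 11 were above 0, as the median of all genes moved from -0.0066 to -0.22. For high_to_high against low_to_low, 12 of 19 and 1 of 11 were above the median of all genes, for low_to_high against low_to_low 12 of 19 and 4 of 11, and for low_to_high against high_to_high 8 of 19 and 8 of 11. With cyclic loess scaling 2 of 11 negative regulators were above 0 between YFP-high and YFP-low libraries, where centring gave 0 of 11. No test was made of this split, and the 4 comparisons share libraries.

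The other genes of the pathway, 32 signalling genes outside the members, had 184 regions tested at day 9. None was called in any of the 4 comparisons (limma, adjusted p under 0.05), and 17, 21, 10 and 9 (9.24%, 11.4%, 5.43% and 4.89%) passed an unadjusted p of 0.05, near the shares of all regions given above.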

How the data were processed

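ATAC-seq peak lists of 11 libraries were used. Per the submitters' processing notes, Bowtie2, HOMER 4.10, DESeq2 and build mm10 were used, without roles. Per the file headers, the signal in each of the authors' lists is a normalized tag count (per 10000000 tags), with peaks called on each library alone. Peaks overlapping by at least 1 bp were merged into 111041 regions (Python 3.11.15, pandas 2.3.3), each with the value of its strongest peak per library. The table used gives gene spans only, so exons and introns are not stated. Tests between day 9 groups used limma 3.58.1 with a trended prior (R 4.3.3) on log2(normalized tag count + 1), centred per library, which understates changes of low values. The test was checked on simulated data of 34383 regions. Single libraries have no test. Groups come from the sample titles.

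Regions with values were named by rule: the 3 lowest p of each day 9 comparison, the 4 highest and 4 lowest of each single-library comparison and the strongest of each gene; others were chosen after their values were seen. The members and gene lists were chosen with earlier results of these data known. Replicate numbers paired low_to_low with low_to_high, judged from the data: same-numbered libraries deviated together (correlations 0.30, 0.14 and 0.16 over regions). They did not pair high_to_high (-0.041 to -0.0012). Alternatives changed centring, pseudocount, filters, merging, assignment, covariates and libraries. Trac of the marker lists was not matched in the gene table. One gene of the marker lists is not reported here.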

Additional observations from a re-analysis of the deposited data

How the results depend on the processing

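The calls of member regions and genes at day 9 stayed at 0 under most alternatives. Without centring, 9 member regions (all lower) passed between YFP-high and YFP-low libraries and 35 (all lower) for high_to_high against low_to_low, with 3 and 14 member genes, where 2022 and 7410 of all regions were called. With regions called in at least 2 libraries of each group, 1 member region was called for high_to_high against low_to_low, the Cblb region 23764 bp outside the span (1.17 ± 0.23, adjusted p = 0.00744, limma). Leaving out 1 library gave 0 to 1 member regions in that comparison (Ubash3b, without low_to_low replicate 1) and 0 in the others, and 0 genes. With the replicate number as a replicate block, the paired fit called 0 member regions and 0 member genes in all 4 comparisons, with 213, 374, 55 and 4 of all regions. A covariate for each library's fraction of tags in peaks left 0 of all regions called, but that fraction separates the low_to_low from the YFP-high libraries. Counts of member regions past 2-fold moved more. Effector against naive cells gave 32, with 66 without centring (61 lower) and 13 at a normalized tag count of 10 or more in both (9 higher). Antigen-experienced against naive cells gave 10, and 4 with a pseudocount of 5. Effector against antigen-experienced cells gave 26, with 86 without centring (83 lower), 9 at a normalized tag count of 10 or more and 16 within 10 kb. Day 9 against naive cells gave 13, with 8 at a pseudocount of 5, 7 at a normalized tag count of 10 or more and 6 within 10 kb, and 13 to 15 without 1 library. Day 9 against effector cells gave 10, with 20 without centring (18 higher), 5 at a pseudocount of 5, 1 at a normalized tag count of 10 or more and 5 within 10 kb, and 10 to 11 without 1 library. Naive member regions missing in effector cells numbered 218, with 192 among peaks of a normalized tag count of at least 10, 226 when merging needed 50 bp and 186 with no effector peak within 500 bp. The median of activators minus that of negative regulators for day 9 against naive cells turned from 0.049 to -0.038 without Ptprc and Fyn and to -0.058 with 1 value per gene. The 4 other differences kept their sign. The cause of these moves was not tested. The comparisons of single libraries have no replicate check.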
